A study of Mus musculus with 6 samples.

Results

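Potassium channel genes were examined in newborn mouse epidermis as every array probe whose RefSeq transcript maps to a mouse symbol that begins with Kcn, a family letter code and a number. The RefSeq table listed 97 such symbols, and 84 of them had a probe on the array, with 118 probes among the 41174 of the design. Of these 84 genes, 82 encode proteins and 2, Kcnq1ot1 and Kcnmb4os1, are non-coding RNAs that carry a channel gene's name. The 3 AhRCA samples came from postnatal day 0 mice in which the keratin 14 promoter drives a constitutively active aryl hydrocarbon receptor (AhR), a ligand-activated transcription factor, so that the transgene is directed to basal keratinocytes. The comparison group was 3 wild-type (WT) littermates of that age. A sampling paired 1 mouse of each genotype, there were 3 samplings, and the strain is labelled mixed. The RNA of each mouse was read on a separate 1-colour Agilent array.

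Potassium channels let potassium ions leave or enter cells down their electrochemical gradient and so set the membrane potential. Pore-forming subunits fall into voltage-gated, inwardly rectifying, tandem-pore and calcium- or sodium-activated families, and auxiliary subunits change their gating or traffic. In keratinocytes, membrane potential and potassium flux are known to accompany the calcium-driven switch from growth to differentiation. Kcnj16 encodes an inward rectifier that alone forms little current. It assembles with Kcnj10 or Kcnj15 into channels that are sensitive to intracellular pH.

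Values are log2 processed intensities minus each array's 75th percentile, so that 0 is the brightness below which 75% of the non-control spots of that array lie. A probe's level depends on its own sequence as well as on its transcript, and levels are therefore compared between samples and not between genes. The 75th percentile of the arrays lay between 627 and 754 intensity units, and between 56.2% and 61.3% of the spots were well above background by the scanner software's flag. Slide 1 carried the arrays of litter pairs 1 and 2, and slide 2 those of pair 3. The Xist probe stood at log2 values of 4.66, 4.57 and -7.14 in AhRCA 1 to 3, against 4.43, 4.44 and -4.20 in WT 1 to 3, and Ddx3y of the Y chromosome was high on slide 2 only, so slide, litter pair 3 and male sex coincided. All 10 listed markers of basal and spinous keratinocytes were measured and 0 passed the test between the genotypes, with 6 fold changes positive and 4 negative. Col17a1 came nearest, at a log2 fold change of 0.51 ± 0.10 (SE, adjusted p = 0.0623, limma). By contrast 6 of 8 endothelial markers were not well above background on any array.

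Kcnj16 was the only 1 of the 25 channel genes tested that passed the main test between the genotypes, which it entered only through its WT arrays. Kcne1 passed too where the litter pair was a block. The Kcnj16 signal was present in all 3 WT epidermes and not well above background in any AhRCA epidermis. The RefSeq promoter table holds 4 transcription starts for it, all on the plus strand of chromosome 11 of the GRCm38.p6 build, each as a window from 250 bases before to 50 bases after the start. AhR binds DNA with its partner ARNT at sites built on the letters GCGTG, and the windows were searched for these letters on both strands. The first start is shown as the most upstream one, and the third as the only 1 of the 4 windows that holds the letters, in capitals, which begin 141 bases before that start.
Kcnj16 start 1, chr11:110967783-110968082: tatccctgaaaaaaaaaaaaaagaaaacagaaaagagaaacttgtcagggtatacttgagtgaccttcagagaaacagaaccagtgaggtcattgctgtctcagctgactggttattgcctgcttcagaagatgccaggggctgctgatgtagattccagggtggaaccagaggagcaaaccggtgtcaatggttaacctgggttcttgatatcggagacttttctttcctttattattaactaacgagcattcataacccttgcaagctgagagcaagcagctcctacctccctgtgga
Kcnj16 start 3, chr11:111019335-111019634: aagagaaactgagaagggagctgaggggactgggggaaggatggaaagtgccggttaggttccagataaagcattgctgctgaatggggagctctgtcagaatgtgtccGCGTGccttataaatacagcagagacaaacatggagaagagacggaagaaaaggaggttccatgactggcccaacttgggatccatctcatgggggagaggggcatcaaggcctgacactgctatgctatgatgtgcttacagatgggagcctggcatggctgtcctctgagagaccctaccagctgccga
The letters GCGTG were present in 32.4% of all 32851 promoter windows of this length and in 26 of the 61 channel genes with a window (42.6%), against 35.2% of all 27025 genes. The longer form TNGCGTG was in none of the 4 Kcnj16 windows and in 5.07% of all windows. The match describes these letters only, and which of the 4 starts is used in epidermis is not given in the sources used here.

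The processed intensities of the brightest Kcnj16 probe, A_52_P550325, were 4.22, 4.56 and 4.08 in AhRCA 1 to 3, against 57.6, 65.1 and 60.1 in WT 1 to 3. On the log2 scale these were -7.34, -7.10 and -7.53 in AhRCA and -3.66, -3.37 and -3.57 in WT. The groups did not overlap, and the AhRCA values lay at the lowest processed intensity of any non-control spot on their arrays, which was 4.21, 4.54 and 4.08. The probe was well above background on 0 of 3 AhRCA and 3 of 3 WT arrays.

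Kcnj16 had a mean of -7.32 ± 0.21 in AhRCA and -3.53 ± 0.15 in WT (SD, n = 3 each). The AhRCA level is only a bound. Set against the lowest signal well above background on each AhRCA array, the WT mean was 2.74-fold higher. A somewhat brighter probe can still miss the flag, as Kcns1 did on AhRCA 2 at 26.6 intensity units against 22.9, so 2.74-fold is an approximate bound. The adjusted p of 0.000315 (limma with Benjamini-Hochberg adjustment over 12824 genes) belongs to the fitted difference and does not test this bound. Kcnj16 entered the test only through its WT arrays. The fitted log2 difference of -3.79 ± 0.15 (SE), like its p, rests on AhRCA values at the arrays' lowest intensity and is not a measured fold. The differences within litter pairs 1, 2 and 3 were -3.68, -3.74 and -3.96. On slide 1 alone the fitted value was -3.71 ± 0.15 (adjusted p = 0.0185, limma). With normexp background correction, which compresses values near background, it was -1.02 ± 0.10 (adjusted p = 0.00494, limma).

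The other two Kcnj16 probes carry the same RefSeq transcript and were not well above background on any array. A_51_P357773 stood at -7.16, -6.99 and -7.37 in AhRCA and -7.35, -7.43 and -7.00 in WT. A_52_P550331 stood at -7.09, -6.92 and -6.08 in AhRCA and -6.26, -6.84 and -6.06 in WT. Both sets of values overlapped between the genotypes, so that the Kcnj16 result rests on 1 of its 3 probes.

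**Figure D1:**
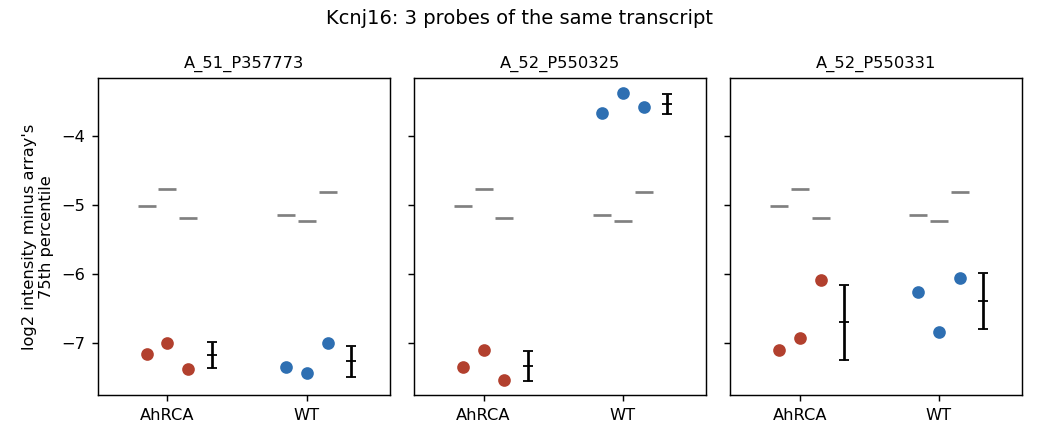
The 3 Kcnj16 probes by genotype, as log2 intensity minus the array's 75th percentile. Points are arrays (replicates 1 to 3 from left to right), black bars are mean ± SD, and grey dashes are the lowest signal well above background on each array; only A_52_P550325 in WT, between -3.66 and -3.37, lies above its dashes.

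Neither partner of Kcnj16 could be tested. Kcnj10 was well above background on 0 AhRCA arrays and 1 WT array, with -5.92, -5.96 and -6.03 in AhRCA against -5.36, -5.86 and -3.50 in WT. The WT 3 value stood apart from the other WT arrays. Kcnj15 was not well above background on any array, with -6.28, -6.31 and -5.91 in AhRCA and -7.26, -6.38 and -6.93 in WT. Genes near Kcnj16 on chromosome 11 were looked up after its value was seen. Kcnj2, the adjoining inward rectifier gene, was not well above background on any of the 6 arrays. On its other side Map2k6, a kinase of stress signalling, had a change of 0.11 ± 0.13 (log2, SE; adjusted p = 0.964 by limma), and for Abca5, a lipid transporter, the change was -0.15 ± 0.20 (adjusted p = 0.983, limma).

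Epidermis is a mixture of cells, and fewer cells of a type cannot be told apart from less RNA per cell in these samples. Marker sums of several appendage and sensory cell types, and of Langerhans and dendritic cells, moved in the direction of Kcnj16 without overlap between the genotypes. Summed over 8 measured sebaceous gland markers, the level was 7.28 to 8.06 times the array's 75th percentile in AhRCA, against 21.9 to 29.1 times in WT, and 7 of the 8 fell. For 5 measured Merkel cell markers the sum was 0.475 to 0.696 in AhRCA and 1.47 to 2.30 in WT, with 3 of them falling and with Atoh1, Sox2 and Rab3c not well above background on any array. Piezo2, 1 of these 3, entered the test only through WT, its tested probe being well above background on 0 AhRCA and 3 WT arrays. For 14 hair follicle markers it was 111 to 173 in AhRCA and 218 to 404 in WT, and 2 fell. Of these 14 fold changes 10 were negative and 4 positive. The hair follicle sum is weighted to its brightest marker, Krt71, at 5.47, 6.39 and 6.14 in AhRCA and 6.74, 7.73 and 7.25 in WT. The 4 measured markers of sweat and mammary gland epithelium summed to 5.40 to 6.51 in AhRCA and 7.92 to 10.6 in WT, and 1 fell. This sum is weighted to Krt7 and Foxc1. Of the 4 fold changes 3 were negative and 1 positive, that of Aqp5 at 1.26 ± 0.71 (log2, SE). The 9 measured Langerhans and dendritic cell markers summed to 8.97 to 12.0 in AhRCA and 12.2 to 17.8 in WT, and 1 rose and 1, Cd207, fell. Cd207 was well above background on 0 AhRCA and 3 WT arrays, so it entered the test only through WT and has only a bound. Of these 9 fold changes 5 were negative and 4 positive, and the sum is weighted to Epcam and H2-Ab1. The 7 measured T cell markers summed to 1.62 to 1.91 in AhRCA and 1.90 to 3.52 in WT, which overlapped, with a median log2 fold change of -1.03 and 0 called. Their fold changes were negative in 6 and positive in 1. The sum of the 10 basal and spinous keratinocyte markers was 1250 to 1520 in AhRCA and 1290 to 1430 in WT. Sums also overlapped for melanocyte markers (68.3 to 82.1 in AhRCA, 60.3 to 87.6 in WT) and Schwann cell and nerve markers (7.11 to 7.33, 6.70 to 7.75). The same held for fibroblast markers (36.3 to 40.5, 31.7 to 40.1) and skeletal muscle markers (1.41 to 1.86, 1.62 to 1.99). The 1 measured endothelial marker overlapped too (0.133 to 0.165, 0.148 to 0.169). The part of these cell types in the Kcnj16 result was not tested.

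Most channel genes were not well above background on any array in newborn epidermis. Of the 84 genes, 20 (23.8%) had a probe well above background on all 6 arrays, 19 on 1 to 5 arrays and 45 (53.6%) on none. Among all 18217 named genes 66.3% were detected on all 6 arrays and 22.8% on none. These counts depend on the flag. With the scanner's more lenient flag, positive and significant against background, 35 channel genes (41.7%) were detected on all 6 arrays and 11 (13.1%) on none. Among all named genes these shares were 76.2% and 8.23%. The tandem-pore channels had the highest share detected throughout (5 of 9), followed by the auxiliary subunits (6 of 15). By contrast 1 of 15 pore subunits of the Kv1 to Kv4 group, 1 of 14 inward rectifiers and 1 of 8 electrically silent subunits were detected on all 6 arrays. A transcript not well above background here has no measured level, and its absence was not shown.

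**Figure D2:**
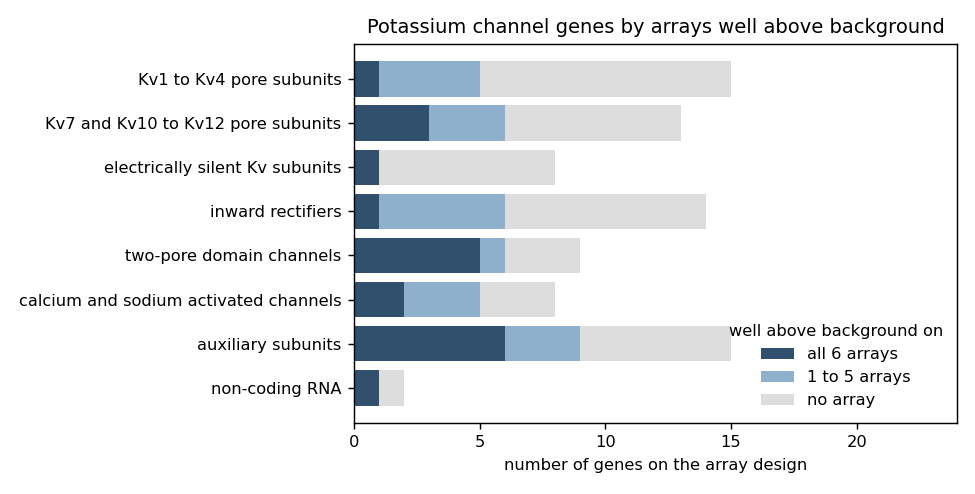
Number of potassium channel genes on the array design in each family, split by the number of arrays on which any probe was well above background. The auxiliary and tandem-pore (labelled two-pore domain) families hold 6 and 5 genes detected on all 6 arrays, and the electrically silent subunits hold 7 of 8 detected on none.

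Among the genes not well above background on any array were Kcnma1, the pore of the large-conductance calcium-activated channel, and Kcna2 to Kcna6 of the Kv1 group. Kcnj8 and Kcnj11, the pores of channels gated by ATP, were also not well above background on any array. Kcnma1 stood at -7.34, -7.11 and -7.53 in AhRCA and -7.46, -7.57 and -6.09 in WT. Its auxiliary subunit Kcnmb4 was well above background on all 6 arrays, with 1.03, 1.19 and 1.34 in AhRCA and 1.37, 1.30 and 1.33 in WT. Kcnma1 was read by a single probe, and a probe that fails to bind its transcript cannot be told apart from a transcript that is not there.

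The number of channel genes well above background was 22, 23 and 25 on AhRCA arrays 1 to 3 and 28, 33 and 26 on WT arrays 1 to 3. The groups did not overlap, whereas the share of all named genes detected did, with 69.3%, 68.4% and 72.3% in AhRCA and 70.7%, 71.8% and 70.9% in WT. On AhRCA arrays alone 1 gene was detected, Kcnip3 (1.19%, against 2.32% of all named genes), and only on WT arrays 13 genes (15.5% of 84, against 3.25% of all named genes). Kcnip3 was detected on 1 AhRCA array, by 1 of its 2 probes. The other probe, not well above background on any array, was lower in AhRCA (-6.89, -6.23 and -6.10) than in WT (-5.08, -5.51 and -5.25). With the scanner's more lenient flag, positive and significant against background, these counts were 8 for AhRCA alone and 7 for WT alone. They made up 9.52% and 8.33% of the channel genes, against 2.55% and 3.1% of all named genes. The imbalance between the genotypes was therefore not seen with the lenient flag, while both shares lay above those of all named genes. By that flag 38 of 84 channel genes and 2838 of 18217 named genes were detected on 1 to 5 arrays. Of such partly detected genes, those in WT alone made up 18.4% for channel genes and 19.9% for all named genes. By the well-above-background flag these shares were 68.4% and 29.7%. Only Kcnj16 was detected on all WT arrays and no AhRCA array, a pattern found in 0.302% of all named genes, and the opposite pattern was found in 0 channel genes and 0.0714% of all named genes.

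Of the other 12 genes detected only in WT, 10 were detected on 1 array, Kcne4 and Kcnk2 on 2, and these 12 were too dim for the test. Kcne4, an auxiliary subunit that damps several Kv currents, stood at -7.30, -7.08 and -7.48 in AhRCA and -4.11, -4.74 and -5.57 in WT. Kcnd2, the pore of a transient outward current, stood at -6.66, -6.95 and -6.91 in AhRCA and -5.34, -4.90 and -4.93 in WT. Kcnk2, a mechanosensitive tandem-pore channel, stood at -5.25, -6.13 and -5.54 in AhRCA and -4.51, -4.75 and -4.56 in WT. These 3 genes were taken from those detected in WT alone, so their lower AhRCA values are a description with no test. The second Kcnd2 probe passed the detection flag on no array, at -6.26, -7.06 and -7.45 in AhRCA and -7.42, -7.26 and -7.07 in WT.

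In all, 25 channel genes had a probe that passed the detection flag on 3 or more of the 6 arrays and were tested, and the other 59 were not. Of the 25, 0 rose and 1, Kcnj16, fell in AhRCA (limma, adjusted p under 0.05), a share of 4% against 2.18% of the 12824 genes tested. That call was reached only through the WT arrays, with AhRCA values at the arrays' lowest intensity. Where the litter pair was a block, 2 channel genes, Kcne1 and Kcnj16, were called lower, in a fit that called 3.88% of all genes. In the main fit 0.53% of all genes rose and 1.65% fell. At an unadjusted p under 0.05 there were 4 channel genes, 16.0% against 12.2% of all genes. The AhRCA and WT values did not overlap in 4 (16.0%), against 16.4% of all genes. Kcnj16 and Kcne1 lay lower in AhRCA (8.84% of all genes) and Kcna1 and Kcnk5 higher (7.52%). The median log2 fold change was -0.07 against 0.00 over all genes tested, and 23 of 25 fold changes were smaller than 0.5 in size (92%, against 90% of all genes). These shares lay near those of all genes.

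**Figure D3:**
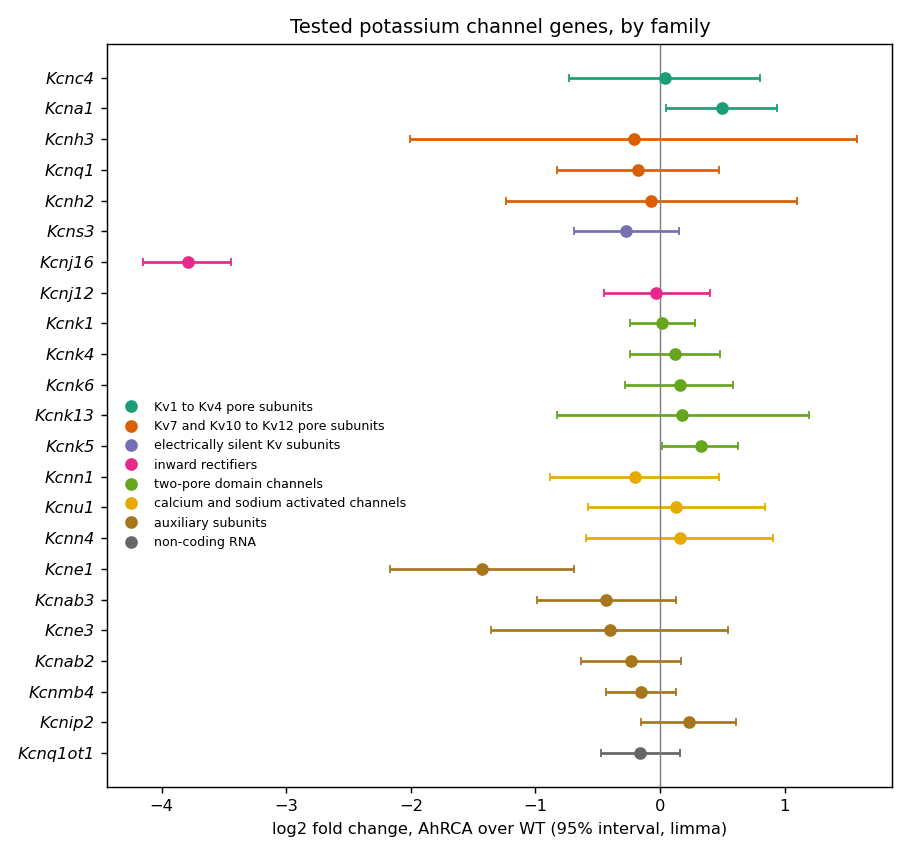
Log2 fold change of AhRCA over WT for 23 of the 25 tested channel genes, with unadjusted 95% intervals from limma, grouped by family. Kcnj16 stands at a fitted -3.79, which rests on AhRCA values at the arrays' lowest intensity, and Kcne1 at -1.43, and the other 21 lie between -0.43 and 0.50.

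Kcne1 had the second most negative fold change. It encodes a small auxiliary subunit that slows the gating of the Kcnq1 channel. Its values were -4.12, -3.31 and -4.14 in AhRCA 1 to 3 and -2.77, -1.91 and -2.61 in WT 1 to 3, and every AhRCA array was below every WT array. The mean was -3.86 ± 0.47 in AhRCA and -2.43 ± 0.46 in WT (SD, n = 3 each). The log2 fold change of -1.43 ± 0.31 (SE, 2.69-fold lower in AhRCA) missed the threshold (adjusted p = 0.0829, limma). The differences within litter pairs 1 to 3 were -1.35, -1.40 and -1.53, and blocking on litter pair, Kcne1 passed (SE 0.08, adjusted p = 0.00919, limma), in a fit that called 3.88% of all genes. With normexp background correction its log2 fold change was -0.74 ± 0.19 (adjusted p = 0.126, limma). With the slide as a block the adjusted p was 0.0736, in a fit that called 4.2% of all genes. A second Kcne1 probe was detected on WT 2 alone, with -5.75, -5.84 and -5.72 in AhRCA and -6.03, -4.89 and -7.08 in WT.

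The pore partner of Kcne1, Kcnq1, had a log2 fold change of -0.18 ± 0.27 with an interval of -0.83 to 0.47 (adjusted p = 0.996, limma). Its differences within pairs were 0.50, 0.00 and -1.04. Kcne3, another small partner of Kcnq1 in epithelia, had -0.40 ± 0.40 (adjusted p = 0.931), and its 2 measured probes gave -0.34 and -0.40. Beyond Kcne1 on chromosome 16, in positions looked up after its value was seen, Rcan1, an inhibitor of calcineurin, had 0.11 ± 0.15 (adjusted p = 0.986), and Clic6, of the chloride intracellular channel family, fell by 1.07 ± 0.16 (log2, SE), with an adjusted p of 0.0282 (limma). Clic6 missed the threshold on slide 1 alone (adjusted p = 0.0813, limma), without the filter on dim probes (0.0702), and without AhRCA 1 (0.0998), AhRCA 2 (0.123), WT 2 (0.120) or WT 3 (0.0723). The marker sums that moved in the direction of Kcnj16 moved in that of Kcne1 too, and their part in its result was not tested.

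Among voltage-gated pore subunits 0 of 7 tested genes passed. Kcna1, a channel known from axons that activates at low voltage, stood at -2.03, -2.02 and -1.66 in AhRCA and -2.50, -2.07 and -2.63 in WT. Every AhRCA value was above every WT value, by 0.06 within pair 2 and by 0.47 and 0.96 within pairs 1 and 3. Its log2 fold change was 0.50 ± 0.18 (unadjusted p = 0.0329, adjusted p = 0.331, limma). Kcnc4, Kcnh2 and Kcnh3 had log2 fold changes of 0.04 ± 0.32, -0.07 ± 0.49 and -0.21 ± 0.75. A change of 2-fold lies within the wide intervals of Kcnh2 (-1.24 to 1.10) and Kcnh3 (-2.01 to 1.58). Kcns3, an electrically silent subunit, had -0.27 ± 0.17 (adjusted p = 0.745, limma).

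The only inward rectifier detected on all 6 arrays was Kcnj12, a strong rectifier that stabilizes the resting potential. Its values of 1.70, 1.56 and 1.36 in AhRCA and 1.33, 1.48 and 1.88 in WT overlapped, with a log2 fold change of -0.03 ± 0.18 and an interval of -0.45 to 0.40 (adjusted p = 0.999, limma). Its direction turned to 0.01 with median scaling and to 0.23 on slide 1 alone. Kcnj4 and Kcnj14 were detected on 1 WT array each and were not tested. The brighter Kcnj4 probe stood at -5.76, -5.54 and -5.49 in AhRCA and -5.01, -4.89 and -4.96 in WT, without overlap. For its second probe, which no array flagged as detected, the genotypes overlapped. That probe read -6.5, -6.65 and -6.12 in AhRCA and -6.68, -6.36 and -5.72 in WT. Kcnj14 stood at -5.05, -5.07 and -5.52 in AhRCA and -4.94, -5.83 and -4.72 in WT, with overlap.

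The tandem-pore channels, which carry background potassium currents, were the most completely detected family, and 0 of 5 tested members passed. All 5 fold changes were positive, between 0.02 and 0.33. Kcnk5, which is opened by alkaline pH, stood at -3.37, -3.69 and -3.69 in AhRCA and -3.88, -3.98 and -3.87 in WT. The groups did not overlap, and its log2 fold change was 0.33 ± 0.13 (unadjusted p = 0.0390, adjusted p = 0.361, limma). Kcnk6 stood between 2.75 and 3.02 in AhRCA and between 2.44 and 3.05 in WT, with 0.16 ± 0.18. Kcnk1, the related weak rectifier, had one of the narrowest intervals, -0.24 to 0.28 around 0.02. The heat- and stretch-sensitive Kcnk4 had 0.12 ± 0.15 and an interval of -0.24 to 0.48.

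Of the calcium- and sodium-activated channels, 0 of 3 tested members passed. Kcnn4, the intermediate-conductance channel, stood at -3.79, -3.67 and -4.29 in AhRCA and -3.77, -3.71 and -4.75 in WT, with a log2 fold change of 0.16 ± 0.31. The values overlapped, and replicate 3 was the lowest in both genotypes. Kcnn1, a small-conductance channel, had -0.20 ± 0.28, and Kcnu1, a channel known from sperm, had 0.13 ± 0.30. Of the other auxiliary subunits, Kcnab2 and Kcnab3, cytoplasmic subunits of Kv channels, had -0.23 ± 0.17 and -0.43 ± 0.23. Kcnip2, a calcium-binding partner of Kcnd2, had 0.23 ± 0.16, and Kcnmb4 had -0.15 ± 0.12. The adjusted p of these 7 genes lay between 0.612 and 0.999 (limma). The non-coding Kcnq1ot1, which runs antisense to Kcnq1 and silences the imprinted domain around it, had -0.16 ± 0.13 at its brightest probe, and its other 2 measured probes gave -0.14 and 0.40.

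Some channels differed more between litters than between genotypes. Kcnh3, a voltage-gated channel known from forebrain, stood at -1.71, -1.67 and 0.06 in AhRCA and -1.45, -1.83 and 0.61 in WT. Kcnk13 stood at -1.78, -1.66 and -0.63 in AhRCA and -1.93, -1.92 and -0.76 in WT. In both genes replicate 3 was the highest of both genotypes. Slide 2 exceeded slide 1 by 1.75 in AhRCA and 2.25 in WT for Kcnh3 and by 1.09 and 1.16 for Kcnk13. A shift upward of at least 1 in both genotypes was found in 2 of the 25 channel genes and in 1.87% of all genes tested. The difference between the genotype effects of the slides passed the test in 0 of the 25 genes (limma interaction term), against 0.0078% of 12822 genes, and 4 had an unadjusted p under 0.05 (16%, against 9.96% of those genes). Slide, litter and sex cannot be told apart here.

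**Figure D4:**
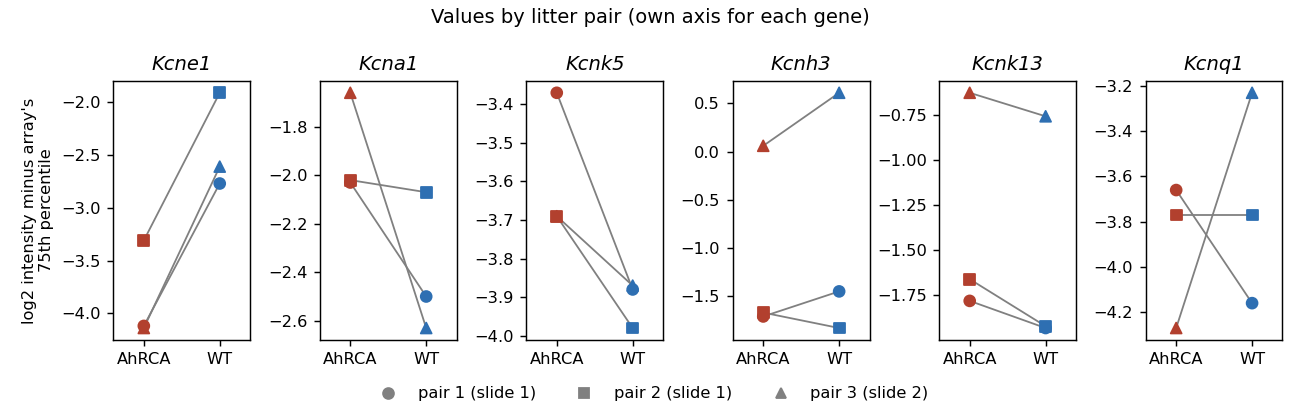
Values of 6 channel genes by genotype, as log2 intensity minus the array's 75th percentile, with lines joining the mice of a litter pair; each gene has its own axis. The AhRCA minus WT difference of Kcne1 lies between -1.53 and -1.35 in every pair, and Kcnh3 and Kcnk13 are highest in pair 3 of both genotypes.

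Other genes of potassium handling were read from the same fit as a list of 44 pumps, cotransporters, regulatory kinases and channel partners. Of 42 with a probe, 30 were tested, 2 rose and 3 fell in AhRCA, where 0.53% of all genes tested rose and 1.65% fell, and the median log2 fold change was -0.07 against 0.00 over all genes. Wnk4, a kinase that controls chloride cotransporters and potassium channels in kidney, stood at -2.97, -4.20 and -3.63 in AhRCA and -0.78, -0.52 and -1.28 in WT. The log2 level fell by 2.74 ± 0.34 (SE), with an adjusted p of 0.0148 (limma). Stk39, the kinase that acts below the Wnk kinases, stood at -0.44, -0.53 and -0.32 in AhRCA and -1.53, -1.67 and -1.52 in WT. It rose by 1.14 ± 0.11 (adjusted p = 0.00787, limma). The related Wnk1 and Oxsr1 had -0.09 and 0.01 and did not pass.

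Atp12a, the non-gastric proton-potassium pump, stood at -3.46, -3.99 and -3.63 in AhRCA and -2.35, -1.99 and -2.14 in WT. The log2 level fell by 1.53 ± 0.17 (SE, 2.90-fold lower in AhRCA; limma adjusted p = 0.0120). Fxyd6, a small regulator of the sodium-potassium pump, stood at 3.65, 3.64 and 3.48 in AhRCA and 4.11, 4.34 and 4.27 in WT and fell by 0.64 (SE 0.12, adjusted p = 0.0475, limma). Lrrc26, an auxiliary subunit that lets large-conductance channels open at low voltage, rose by 0.89 ± 0.15 (adjusted p = 0.0454, limma). It stood at -4.16, -4.05 and -4.24 in AhRCA and -5.32, -4.95 and -4.83 in WT, and passed the detection flag on 1 of the 3 WT arrays. For each of these 3 genes the genotypes did not overlap. The beta subunits of the sodium-potassium pump had log2 fold changes of 0.02 for Atp1b1 and -0.03 for Atp1b3, which did not pass.

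Fxyd6 and Lrrc26 lost their calls whichever array was left out (adjusted p 0.0767 to 0.212 and 0.0548 to 0.173, limma), and blocking on litter pair, Fxyd6 had an adjusted p of 0.0509 and with median scaling 0.161. With normexp background correction the log2 fold change of Lrrc26 was 0.34 ± 0.09 (adjusted p = 0.137) and that of Atp12a -0.85 ± 0.11 (adjusted p = 0.0150, limma). Without WT replicate 2 none of the 30 genes passed (Stk39 0.0504, Atp12a 0.0551, Wnk4 0.0627), and Wnk4 also missed without AhRCA replicate 3 (0.0621). On slide 1 alone Stk39 was the only one to pass.

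**Figure D5:**
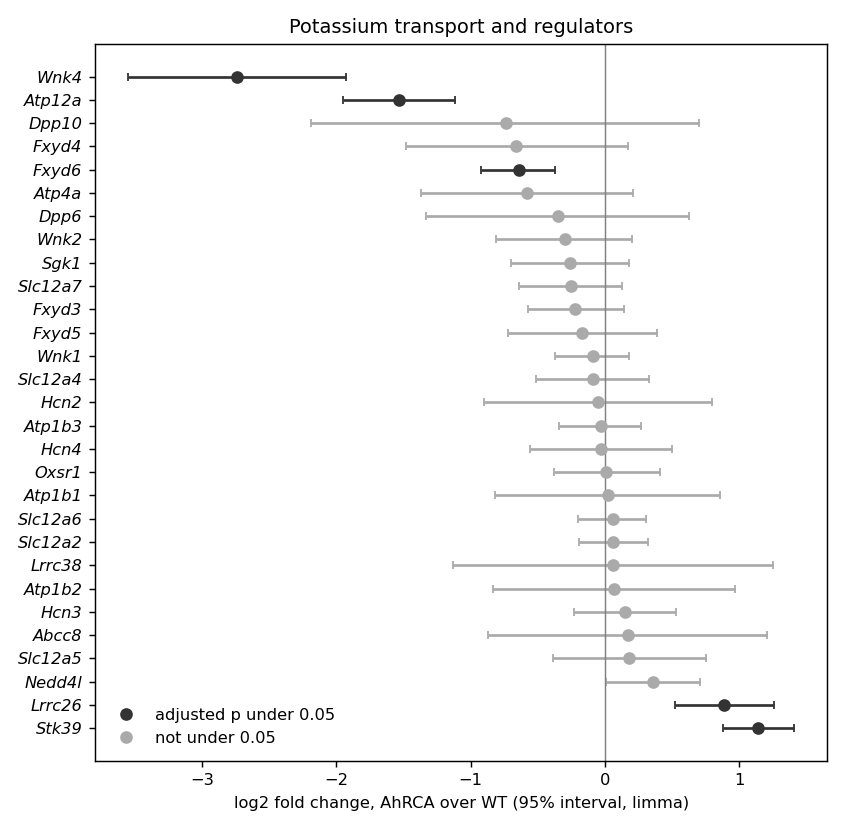
Log2 fold change of AhRCA over WT for 29 of the 30 tested genes of potassium transport and its regulation, with unadjusted 95% intervals from limma. The dark points are the 5 genes with an adjusted p under 0.05, from Wnk4 at -2.74 to Stk39 at 1.14.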

How the data were processed

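Epidermal total RNA was purified by RNeasy Micro columns and Cy3-labelled, per the labels' protocols. Spot intensities were made by the authors with Agilent Feature Extraction 10.7.3.1, which subtracts background and spatial trends within an array and does not scale between arrays, per the file headers. The deposited value table of the authors holds log2 values centred per probe; against the scanner values its differences had slopes between 0.9998 and 1, with column medians between -0.0710 and 0.0827.

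Here log2 intensity minus each array's 75th percentile was used. Control spots and 56 to 94 outlier spots per array were left out, and spots of a probe were averaged. Symbols came from RefSeq accessions through the GRCm38.p6 table: of 41174 probes 26690 had 1 symbol, 0 several and 14484 none. Probes that passed the well-above-background flag on 3 or more arrays were kept, and the brightest stood for its gene. AhRCA and WT were compared over 12824 genes with limma 3.58.1 (R 4.3.3; lmFit, eBayes, two-sided, Benjamini-Hochberg, threshold 0.05), which was tested on simulated data. A gene with no array of a genotype well above background has only a bound.

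Same-numbered samples are littermates per the labels, and their deviations correlated at 0.337, 0.372 and 0.55 over 12821 genes, against -0.416 to 0.194 for other pairs, so the litter pair is used as a block beside the main values. The slide interaction was fitted over all genes. Normexp (offset 50) used the median spot signal, the column the files hold. The members, gene families, marker lists and the rule for named genes were chosen with earlier results of these data known. That rule takes Kcnj16, Kcnj10 and Kcnj15, called channel genes, those detected in all of 1 genotype and none of the other, the 3 largest changes per family and the called transport genes; the other tested members are named so that each is accounted for, and undetected ones were chosen after their values were seen. Of 84 members, 61 had a RefSeq promoter window (GRCm38.p6). The number of arrays limits the precision. Results for a few genes are counted in the totals and not reported here by name.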

Additional observations from a re-analysis of the deposited data

How the results depend on the processing

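The count of genes changed between AhRCA and WT was 279. It was 497 with the litter pair as a block, 539 with the slide as a block, 130 on slide 1 alone, 132 with no filter on dim probes and 62 to 195 when any 1 array was left out. Under all 10 other settings and all 6 omissions of 1 array 0 channel genes were called higher. The count called lower was 2 with the litter pair as a block (Kcne1 and Kcnj16), 2 without the filter (Kcnj16 and Kcnd2, which passes the detection flag on no AhRCA array), 0 when probes had to pass the detection flag on all 6 arrays, a setting that removes Kcnj16, and 1 to 1 when any 1 array was left out. Kcnj16 kept its direction and call in the 9 alternatives that test it, from -3.80 to -1.02, and in the omissions, from -3.90 to -3.69. Each of these fits sets WT against AhRCA signals not well above background, so they share the limit of the main fit and add no independent support. With the replicate block Kcnj16 was at -3.79. Beyond Kcne1, the block changed no channel call. Channel genes detected on at least 2 of 3 arrays of a genotype numbered 27, and 59 with the lenient flag. Called transport genes numbered 5, with 1 on slide 1 alone, 3 without the filter and 0 to 3 in the omissions. Signs turned for uncalled genes on slide 1 alone, with 0.21 for Kcnh2, 0.23 for Kcnj12 and 0.25 for Kcnq1, and for Kcnj12 under median scaling, with 0.01. Omission of 1 array gave ranges of -0.34 to 0.45 for Kcnh2, -0.79 to 0.54 for Kcnh3, -0.14 to 0.13 for Kcnj12, -0.18 to 0.57 for Kcnk13, -0.43 to 0.06 for Kcnn1, -0.18 to 0.35 for Kcnn4, -0.40 to 0.06 for Kcnq1 and -0.19 to 0.38 for Kcnu1. The causes were not tested.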
